A study of Mus musculus with 2343 samples.

Results

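The 9 genes described here are induced by interferons: Ifitm3, Ifi27l2a, Isg15, Irf7, Ifit1, Ifit3, Trex1, Ubd and Rnf213. They were taken by name from the deposited count table, and all 9 were found among its 45317 gene rows. Their RNA was measured in mouse thymic epithelial cells, in bulk libraries and in single cells. The study compared wild-type (WT) cells with cells of mice in which a beta5t-Cre transgene can delete floxed Eed. Eed is a core component of the Polycomb complex that methylates histone H3 and represses genes. The cells were cortical (cTEC) or medullary with high surface MHC class II (mTEChi). WT mTEChi cells came from the strain Eedflfl::ZsGreen, for which no Cre is named. The Eed mTEChi cells came from Eedflfl::ZsGreen::beta5tCre mice and were divided by sorting into cells without ZsGreen (ZsGneg) and cells with it (ZsGpos). Cortical cells came from Eedflfl mice (WT) and Eedflfl::beta5tCre mice (Eed), and all of them are labelled ZsGreen negative. Floxed Eed is thus carried by every group, WT included, and ages are not given. The gene beta5t (Psmb11) is active in cTECs and in progenitors that also give rise to mTECs, so Cre can act in both lineages.

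Interferons bind receptors at the cell surface and activate transcription factors, which switch on a large set of target genes. Type I and type III interferons act mainly through interferon-stimulated response elements (ISREs) in target promoters, and interferon gamma acts mainly through GAS elements. Thymic epithelium expresses many interferon-induced genes without infection, and mature medullary cells are a known source of type I and type III interferon in the thymus. Among the 9 genes, Ifitm3 blocks the entry of viruses through membranes and Ifi27l2a encodes a small interferon-induced protein. Ifit1 binds foreign RNA, and Ifit3 belongs to the same family. Trex1 degrades cytosolic DNA and so limits its sensing. Isg15 and Ubd are ubiquitin-like modifiers, Rnf213 is a very large ubiquitin ligase, and Irf7 is the transcription factor that amplifies interferon production.

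Promoter letters are shown because they divide the 8 genes with a promoter window (all but Ifi27l2a) into those that hold an ISRE-type motif close to the start and those that do not. The motif searched was TTTC, any 2 bases and TTTC again, or GAAA, any 2 bases and GAAA on the other strand, in RefSeq promoter windows of build GRCm38.p6 that run from 250 bases before to 50 bases after each annotated start. It was found for 4 of the 8 members with a window (Ifitm3, Isg15, Ifit1 and Ifit3), against 3.99% of 27025 genes with a window. The 4 sequences cover the 160 bases before the start, on the gene's own strand, and capitals mark the motif. Isg15 lies on the minus strand (chr4:156200819-156200978), and Ifit1 (chr19:34640729-34640888), Ifit3 (chr19:34583369-34583528) and Ubd (chr17:37193732-37193891) lie on the plus strand.
Isg15: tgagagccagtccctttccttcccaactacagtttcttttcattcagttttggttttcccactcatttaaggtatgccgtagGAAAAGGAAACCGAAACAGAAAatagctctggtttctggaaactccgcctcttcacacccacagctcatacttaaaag
Ifit1: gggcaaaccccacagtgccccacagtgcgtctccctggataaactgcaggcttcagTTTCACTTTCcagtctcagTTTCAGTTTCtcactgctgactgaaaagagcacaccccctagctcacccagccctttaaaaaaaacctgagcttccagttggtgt
Ifit3: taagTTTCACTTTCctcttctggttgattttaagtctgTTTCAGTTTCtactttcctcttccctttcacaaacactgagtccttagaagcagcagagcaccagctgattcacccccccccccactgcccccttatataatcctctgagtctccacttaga
Ubd: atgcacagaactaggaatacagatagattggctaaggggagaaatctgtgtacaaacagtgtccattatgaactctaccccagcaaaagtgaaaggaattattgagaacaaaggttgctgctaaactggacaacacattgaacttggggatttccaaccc
Isg15 holds 3 overlapping motifs within 1 run of capitals, which begin at positions -78, -72 and -66 from the start. Ifit1 holds 2, at -104 and -85, and Ifit3 holds 2, at -156 and -122. The window of Ubd has no match, as have those of Irf7, Trex1 and Rnf213. In Ifitm3 the 2 matches lie after the start, at positions 3 and 20. The GAS-type motif TTCNNNGAA, which reads the same way on both strands, was found in 1 of the 8 members, Ifitm3, against 9.55% of genes, and it overlaps the ISRE-type match at position 20.

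Bulk mTEChi libraries of about 1000 cells gave 4 ZsGneg units, 4 ZsGpos units and 3 WT units, each WT unit being the sum of 3 libraries that share a number. Gene counts per unit ran from 10519116 to 43344149. Whether units came from separate animals is not labelled. The p-values therefore reflect the spread among these units, which may be technical, and fewer cells of a type cannot be told apart from less RNA per cell. The share of counted reads that fell outside genes was 29.7% to 33.3% in ZsGneg, 39.1% to 43.4% in ZsGpos and 33.9% to 39.9% in WT units. The mitochondrial share of gene counts was 5.54% to 7.83% in ZsGneg, 9.15% to 14.9% in ZsGpos and 7.23% to 7.74% in WT units, so that every ZsGpos unit was above all others, the same separation as for Ubd and Irf7. Eed itself had 30.0 to 51.9 CPM in WT, 48.9 to 100.8 CPM in ZsGneg and 16.7 to 89.7 CPM in ZsGpos units, and the floxed exons are not named. The summed level of 14 medullary markers was 26334 to 33603 CPM in WT, 33316 to 52582 CPM in ZsGneg and 19238 to 20416 CPM in ZsGpos units, with none of the 14 at 0 in any group. The sum of 10 cortical markers was 2850 to 3333 CPM in WT, 2029 to 2461 CPM in ZsGneg and 1757 to 2346 CPM in ZsGpos units, and that of 7 fibroblast markers was 117.7 to 201.3, 131.9 to 416.2 and 232.8 to 409.9 CPM. In the same order, 12 thymocyte markers summed to 63.2 to 72.2, 83.01 to 193.3 and 67.2 to 344.02 CPM, and 11 myeloid markers to 363.2 to 573.3, 358.6 to 1245 and 321.5 to 540.07 CPM. The 6 erythroid markers summed to 51.7 to 155.98, 16.8 to 147.7 and 4.68 to 18.7 CPM, the 6 B cell markers to 126.1 to 130.6, 122.9 to 268.9 and 53.1 to 136.7 CPM, and the 6 endothelial markers to 43.6 to 49.9, 2.09 to 40.2 and 9.19 to 63.4 CPM. Cortical and erythroid sums were thus lower and fibroblast sums higher in every ZsGpos than in every WT unit. How far these differences between groups enter the results on the 9 genes was not tested.

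In bulk mTEChi cells the 9 genes did not move as 1 group. Ubd was lower in ZsGpos cells than in both other groups, Ifitm3 and Ifi27l2a were higher in ZsGneg cells than in WT cells, and Ifitm3 and Trex1 were lower in ZsGpos than in ZsGneg cells. These calls were not equally steady in 11 fits with 1 unit left out. Both Ubd calls and Ifitm3 between the Eed groups held in all 11. Against WT, Ifitm3 was kept in 3 and Ifi27l2a in 1, and Trex1 between the Eed groups in 2. All 9 genes were among the 18931 tested. With edgeR's quasi-likelihood test and an adjusted p under 0.05, 1 of 9 members was called lower in ZsGpos against WT (background: 0.254% of genes lower, 0.38% in either direction). In ZsGneg against WT, 2 of 9 were called higher (background: 0.037% higher, 0.0423% in either direction). In ZsGpos against ZsGneg, 3 of 9 were called lower (background: 2.04% lower, 2.66% in either direction). The median log2 fold change over the members was 0.54, 0.72 and -0.49 in the 3 comparisons, beside -0.05, -0.15 and 0.14 over all genes tested. The comparisons with WT share the WT units. When the outside-gene read share was added as a covariate, 0 of 9 members were called in any comparison. Hardly any gene was called with this covariate, and none in ZsGpos against ZsGneg (shares in the last section). The 0 is therefore not particular to the members. The outside-gene read share separates ZsGneg from ZsGpos units without overlap.

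**Figure D1:**
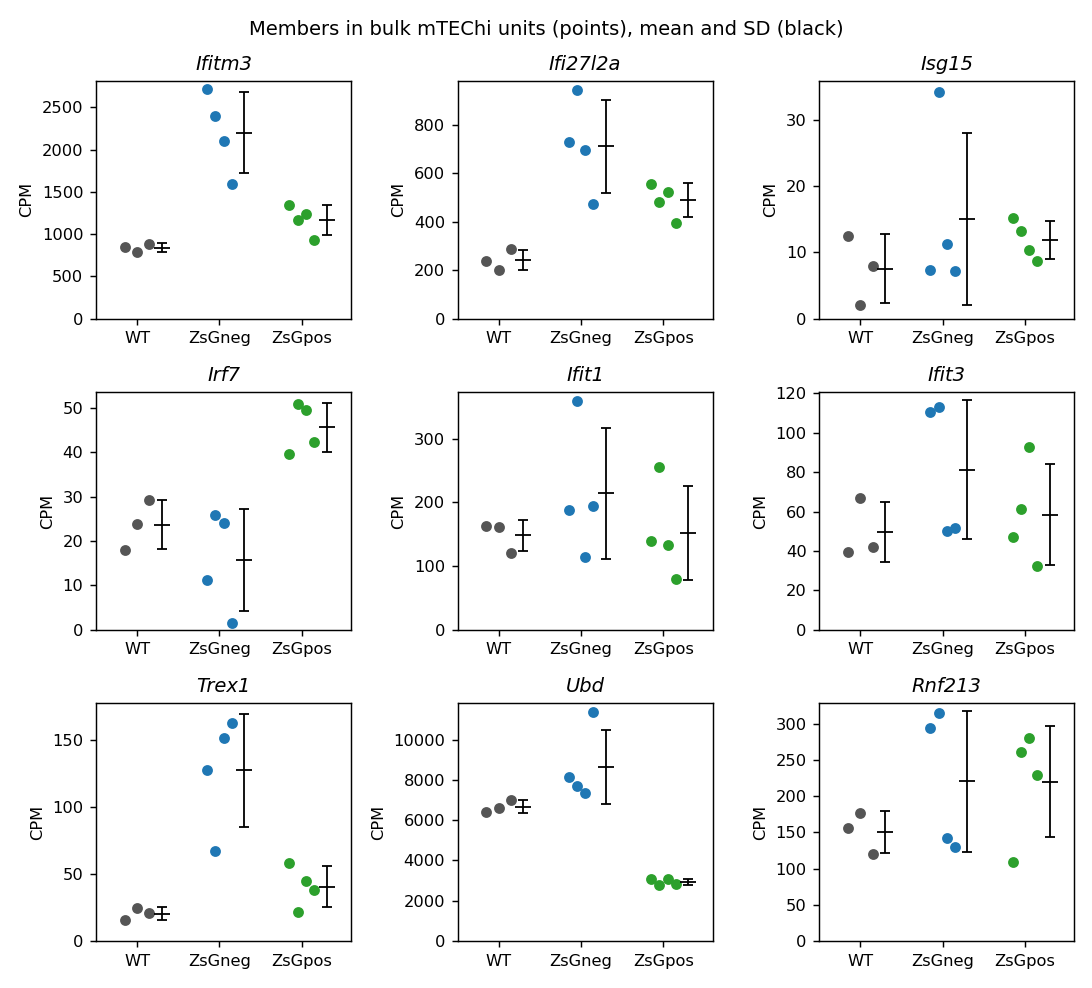
Level of each member in bulk mTEChi units (CPM, linear axes from 0). Coloured points are units in the order of their numbers, and black marks are the mean and SD of 3 WT, 4 ZsGneg and 4 ZsGpos units. Ubd in ZsGpos units (2796 to 3066 CPM) lies below all WT units (6411 to 7016 CPM), and Trex1 in ZsGneg units (67.5 to 162.7 CPM) lies above all WT units (15.6 to 24.8 CPM).

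The membrane protein gene Ifitm3 had 851, 783 and 888 CPM in the WT units, 2715, 2403, 2100.1 and 1591 CPM in the ZsGneg units and 1339, 1169, 1239.6 and 930.2 CPM in the ZsGpos units. All ZsGneg units were above all ZsGpos units, and these were above all WT units. Ifitm3 rose in ZsGneg against WT (log2 fold change 1.39, SE 0.192, adjusted p = 0.0286) and was lower in ZsGpos than in ZsGneg (-0.91, SE 0.172, adjusted p = 0.0112). The first call was lost when any 1 of 8 units was left out (ZsGneg 1 to 3, ZsGpos 2 and 3, WT 1 to 3), with an adjusted p between 0.0506 and 0.377, and when only the compared groups were fitted (adjusted p = 0.167), while the second held without each of the 11 units. ZsGpos against WT gave 0.48 (SE 0.186, adjusted p = 0.423).

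Ifi27l2a, which shares its genomic span with Ifi27 so that their reads may not be separable, followed the same order with more overlap. It had 239.5, 201.4 and 286.4 CPM in WT, 727, 942, 697 and 473.5 CPM in ZsGneg and 555, 480.1, 522.8 and 395.7 CPM in ZsGpos units. Every Eed unit was above every WT unit, and the ZsGneg and ZsGpos ranges overlapped. Ifi27l2a rose in ZsGneg against WT (log2 fold change 1.55, SE 0.239, adjusted p = 0.0451), but this call was kept only when ZsGneg 4 was the unit left out, and the adjusted p reached 0.385 without WT 2. In ZsGpos against WT the log2 fold change was 1.01 (SE 0.234, adjusted p = 0.0926), and it passed the threshold with DESeq2 (adjusted p = 0.00043).

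Trex1, the DNA exonuclease, showed the widest step among the members. It had 15.6, 24.8 and 21.1 CPM in WT, 128.1, 67.5, 151.8 and 162.7 CPM in ZsGneg and 58.6, 21.5, 44.7 and 37.8 CPM in ZsGpos units. All ZsGneg units stood above all units of the other groups, and 1 ZsGpos unit (number 2) lay within the WT range. Against WT the ZsGneg difference was 2.64 on the log2 scale (SE 0.451), with an adjusted p of 0.0698 that missed the threshold. DESeq2 gave an adjusted p of 9.85e-07 for the same contrast. Trex1 was lower in ZsGpos than in ZsGneg (log2 fold change -1.65, SE 0.390, adjusted p = 0.0386), a call that was lost in 9 of 11 fits with 1 unit left out (all except those without ZsGneg 2 or ZsGpos 1, adjusted p up to 0.0983) and with 9 separate WT libraries (adjusted p = 0.183). In single WT libraries, before summing, Trex1 ran from 4.47 to 48.8 CPM, whereas Ifitm3 ran from 697 to 961 CPM.

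Ubd, a ubiquitin-like modifier that directs proteins to the proteasome and is abundant in mature medullary cells, had the steadiest values. It had 6411, 6600.2 and 7016 CPM in WT, 8159, 7718, 7338 and 11384 CPM in ZsGneg and 3064, 2796, 3066 and 2824 CPM in ZsGpos units. No ZsGpos unit came near the other groups, and all ZsGneg units were above all WT units. Ubd fell in ZsGpos against WT (log2 fold change -1.18, SE 0.141, adjusted p = 0.00222) and against ZsGneg (-1.56, SE 0.134, adjusted p = 0.000151), and both calls held without each of the 11 units. Adjusted for the outside-gene read share, the same 2 differences were -1.18 and -1.55, with adjusted p = 0.086 and 1. ZsGneg against WT gave 0.37 (SE 0.142, adjusted p = 0.369). The summed medullary markers were also lowest in ZsGpos units, but the 14 markers were mixed. Against ZsGneg, 4 were called lower (H2-Aa -1.30, Cd74 -1.46, Ctss -1.08 and Cd40 -0.92 on the log2 scale) and 1 higher (the keratin gene Krt5, 1.35), with 6 of 14 above 0 and a median of -0.14. Against WT, 1 was called lower (H2-Aa, -0.88) and 2 higher (Krt5 2.66 and Krt14 1.495), with a median of -0.45. Their part in the Ubd difference was not tested.

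Isg15, the other ubiquitin-like modifier, was low and scattered, with 12.5, 2.10 and 7.99 CPM in WT, 7.33, 34.2, 11.3 and 7.25 CPM in ZsGneg and 15.2, 13.3, 10.3 and 8.74 CPM in ZsGpos units. The 3 groups overlapped, and the highest value belonged to ZsGneg 2. The SE of its log2 differences was 0.931 to 1.03. Rnf213, the ubiquitin ligase, had 155.8, 176.7 and 119.6 CPM in WT, 294.7, 314.6, 142.6 and 130.01 CPM in ZsGneg and 108.9, 260.8, 279.97 and 229.7 CPM in ZsGpos units. Its Eed groups had nearly the same mean. Of the ZsGneg units 2 lay within the WT range, while of the ZsGpos units 1 lay below it and 3 above. Against WT the Rnf213 difference was 0.54 in ZsGpos and 0.55 in ZsGneg (SE 0.375 for both), with adjusted p of 0.879 and 0.83.

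Of the 2 Ifit genes, Ifit1 had 163.5, 161.2 and 120.1 CPM in WT, 188.9, 359.2, 114.2 and 194.3 CPM in ZsGneg and 138.95, 255.9, 133.9 and 80.3 CPM in ZsGpos units. Ifit3, which has the near-identical neighbour Ifit3b, had 39.3, 66.98 and 42.1 CPM in WT, 110.4, 112.9, 50.1 and 51.5 CPM in ZsGneg and 47.1, 61.1, 92.8 and 32.5 CPM in ZsGpos units. For both genes the 3 groups overlapped, and no comparison passed the threshold (adjusted p of 0.568 or above). The transcription factor gene Irf7 had 18.1, 23.9 and 29.2 CPM in WT, 11.3, 25.96, 24.1 and 1.58 CPM in ZsGneg and 39.7, 51, 49.6 and 42.3 CPM in ZsGpos units. All ZsGpos units were above all others. With SEs of 0.694 to 0.750, neither the 1.54 against ZsGneg nor the 0.94 against WT (log2) passed (adjusted p = 0.258 and 0.969).

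Without regard to a test, 3 members had every ZsGpos unit above every WT unit (Ifitm3, Ifi27l2a and Irf7, background 4.78% of genes) and 1 had every ZsGpos unit below (Ubd, background 11.1%). For ZsGneg against WT, 4 members had every unit above (Ifitm3, Ifi27l2a, Trex1 and Ubd, background 3.92%) and none had every unit below (background 9.91%). These orders and shares are of units, and each WT unit sums 3 libraries while each Eed unit is 1 library. Single WT libraries reached 48.8 CPM for Irf7 and 961 CPM for Ifitm3, within the ZsGpos ranges, and 7689 CPM for Ubd, within the ZsGneg range. The other orders against WT named here also held for single WT libraries. Between the Eed groups, 3 were lower in every ZsGpos unit (Ifitm3, Trex1 and Ubd, background 5.22%) and 1 was higher (Irf7, background 5.44%).

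**Figure D2:**
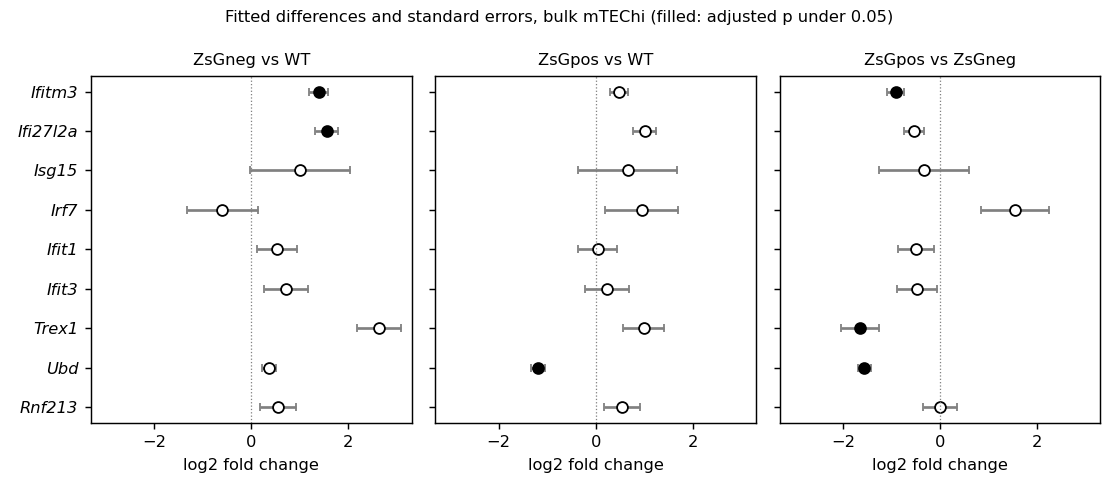
Log2 fold change (point) and standard error (bar) of each member in the 3 bulk comparisons, with filled points where the adjusted p was under 0.05. Ubd at -1.18 and -1.56 is the gene called in both comparisons that involve ZsGpos, and Trex1 in ZsGneg against WT (2.64) is the largest difference and is not filled.

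Small pools of 100 cells on plate SCGC1373 gave 3 wells per group but only 10332 to 180374 gene counts each, and 731 genes passed the filter, 4 members among them. Ifitm3 had 3410, 3758 and 4877 CPM in WT, 8299, 2119 and 4562 CPM in ZsGneg and 8396, 8336 and 5493 CPM in ZsGpos wells. The ZsGpos wells were all above the WT wells, the ZsGneg wells overlapped both groups, and no Ifitm3 contrast passed (adjusted p of 0.310 or above). Rnf213 had 247.1, 221.06 and 1554 CPM in WT and 22.5, 61.1 and 144.5 CPM in ZsGpos wells and was called lower (log2 fold change -3.45, SE 0.795, adjusted p = 0.0243), 1 of 4 members against a background of 0.958% lower and 2.74% in either direction. This call rests on WT well 3 and was lost without it (log2 fold change -1.71, adjusted p = 0.483). It was also lost without ZsGneg 3, ZsGpos 1 or ZsGpos 2 and with no low-count filter (adjusted p = 0.101). Trex1 was not tested there, with counts of 0, 0 and 1 in WT, 8, 9 and 3 in ZsGneg and 8, 9 and 1 in ZsGpos wells. The other pool comparisons called 0 of 4 members (background 0.547% for ZsGneg against WT and 3.69% for ZsGpos against ZsGneg), and Ubd had an adjusted p of 0.728 or above in all 3.

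Single cells were kept with at least 50000 gene counts, 1500 detected genes and at most 25% mitochondrial counts, which left 597 cTECs (70.1% of the WT and 85.4% of the Eed wells) and 814 mTEChi cells (57.3% of the WT, 67.6% of the ZsGneg and 39.4% of the ZsGpos wells). No animal is named for them, so each group is 1 sample and no test is possible. Levels are pooled CPM (the counts of a gene over all gene counts, scaled as in bulk) with 95% Poisson intervals, shares of cells have exact binomial intervals, and both cover counting error only. The mTEChi cells sit on 4 plates, of which plate SCGC1381 kept only 2 ZsGpos cells, and the cTECs carry no plate label, so that cell group and plate cannot be told apart for them. The labels were checked with markers: Aire, the regulator of tissue antigens in the medulla, had 870.5 to 1176 CPM in the mTEChi groups and 0.296 to 5.6 CPM in cTECs, where 0.915% and 4.83% of cells had a count. The cortical Psmb11 had 792 CPM in WT and 34.4 CPM in Eed cTECs, and the summed cortical markers were 20331 and 3309 CPM, so Eed cTECs carry the cortical label with little of these markers. The same cortical sum was 5127 CPM in WT, 4205 CPM in ZsGneg and 4808 CPM in ZsGpos mTEChi cells, each above the Eed cTECs. The summed medullary markers were 25303 and 18632 CPM in WT and Eed cTECs and 46700 to 49556 CPM in the mTEChi groups.

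Across the 5 groups, 7 of the 9 members were highest in WT cTECs, and Ubd and Trex1 were highest in mTEChi cells. Against WT mTEChi cells, WT cTECs had over 1.5 times higher levels of 7 of 9 members (background 36.2% of genes) and over 1.5 times lower levels of the other 2 (background 38.2%). The ratio was 25.5 for Isg15, 9.59 for Ifit3, 4.52 for Ifi27l2a, 3.54 for Rnf213, 3.07 for Ifit1, 2.92 for Ifitm3 and 2.59 for Irf7. The Ifit3 ratio depends on plate SCGC1373, without which WT mTEChi cells had 15.3 CPM of Ifit3 in place of 35.1 CPM. Trex1 was 2.56 times higher and Ubd 78.7 times higher in WT mTEChi cells. The 3 members with an ISRE-type motif before the start (Isg15, Ifit1 and Ifit3) were all among the 7, as was Ifitm3 with its matches after the start. The 4 without a match were divided, with Irf7 and Rnf213 higher in cTECs and Ubd and Trex1 higher in mTEChi cells. A part of the motif in these levels was not tested.

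Ubd had 62.04 CPM (60.7 to 63.4) in WT cTECs, 3.64 (3.35 to 3.95) in Eed cTECs, 4881 (4867 to 4896) in WT, 4409 (4397 to 4422) in ZsGneg and 3214 (3201 to 3227) in ZsGpos mTEChi cells. It was detected in 98.2% to 98.6% of mTEChi cells, in 20.4% of WT cTECs (15.8 to 25.8) and in 5.79% of Eed cTECs (3.52 to 8.90). After each cell was thinned to 50000 counts the shares in cTECs were 14.5% and 3.96%. A single cell held 18.04% of the Ubd counts of WT cTECs and 27.7% of those of Eed cTECs. In mTEChi cells ZsGpos had the lowest pooled level, as in bulk, and ZsGpos cells were below ZsGneg cells on 3 of 3 plates with at least 20 cells in both groups (background 14.4%), at 3652 against 4194, 2958 against 4860.5 and 3410.3 against 3852 CPM. Against WT cells ZsGpos cells were lower on 2 of 3 plates, with plate SCGC1373 as the exception (3652 against 3549 CPM).

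Isg15 had 168.2 CPM (166.1 to 170.4) in WT cTECs, 107.8 (106.2 to 109.4) in Eed cTECs, 6.61 (6.08 to 7.16) in WT, 7.69 (7.16 to 8.24) in ZsGneg and 11.3 (10.6 to 12.1) in ZsGpos mTEChi cells. It was detected in 89.96% and 81.4% of WT and Eed cTECs and in 21.1% to 30.99% of mTEChi cells. Both cortical groups were far above all mTEChi groups, and no mTEChi plate exceeded 15.4 CPM. Median depths were 539803 and 517537 gene counts in WT and Eed cTECs and 291377 to 316033 in the mTEChi groups, and after thinning the detected shares were 83.3% in WT cTECs, 71.6% in Eed cTECs and 13.03% to 22.1% in mTEChi cells.

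Comparing the cortical groups, 7 of 9 members were over 1.5 times higher in WT than in Eed cTECs (background 22% of genes) and 8 of 9 were higher at all (background 49.1%), and Trex1 was the 1 member that was lower (1.24 times higher in Eed, background 50.9% lower). Ubd was 17.04 times, Rnf213 3.87 times and Ifit3 3.62 times higher in WT cTECs, and Ifitm3, Ifi27l2a, Irf7, Isg15 and Ifit1 were 1.38 to 1.78 times higher. Rnf213 had 450.5 CPM (446.98 to 454.1) against 116.5 (114.8 to 118.1), with a count in 96.3% against 67.4% of cells. Ifit3 had 336.9 CPM (333.8 to 339.99) against 93.1 (91.6 to 94.6), with a count in 85.1% against 50% of cells. Ifitm3 was found in nearly every cell of both groups, at 3394 CPM (3384 to 3403) against 1907 (1901 to 1914). Ifi27l2a had 1093 against 621 CPM, Irf7 239.99 against 142.1 CPM, Ifit1 474.3 against 344.9 CPM and Trex1 48.3 against 60.1 CPM. Beside these values, the summed level of 7 fibroblast markers was 1543 CPM in WT cTECs, where Pdgfra was at 0, and 5298 CPM in Eed cTECs, where none was at 0. The summed cortical markers fell on the other side, as given above, and the part of either in the member levels was not tested.

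**Figure D3:**
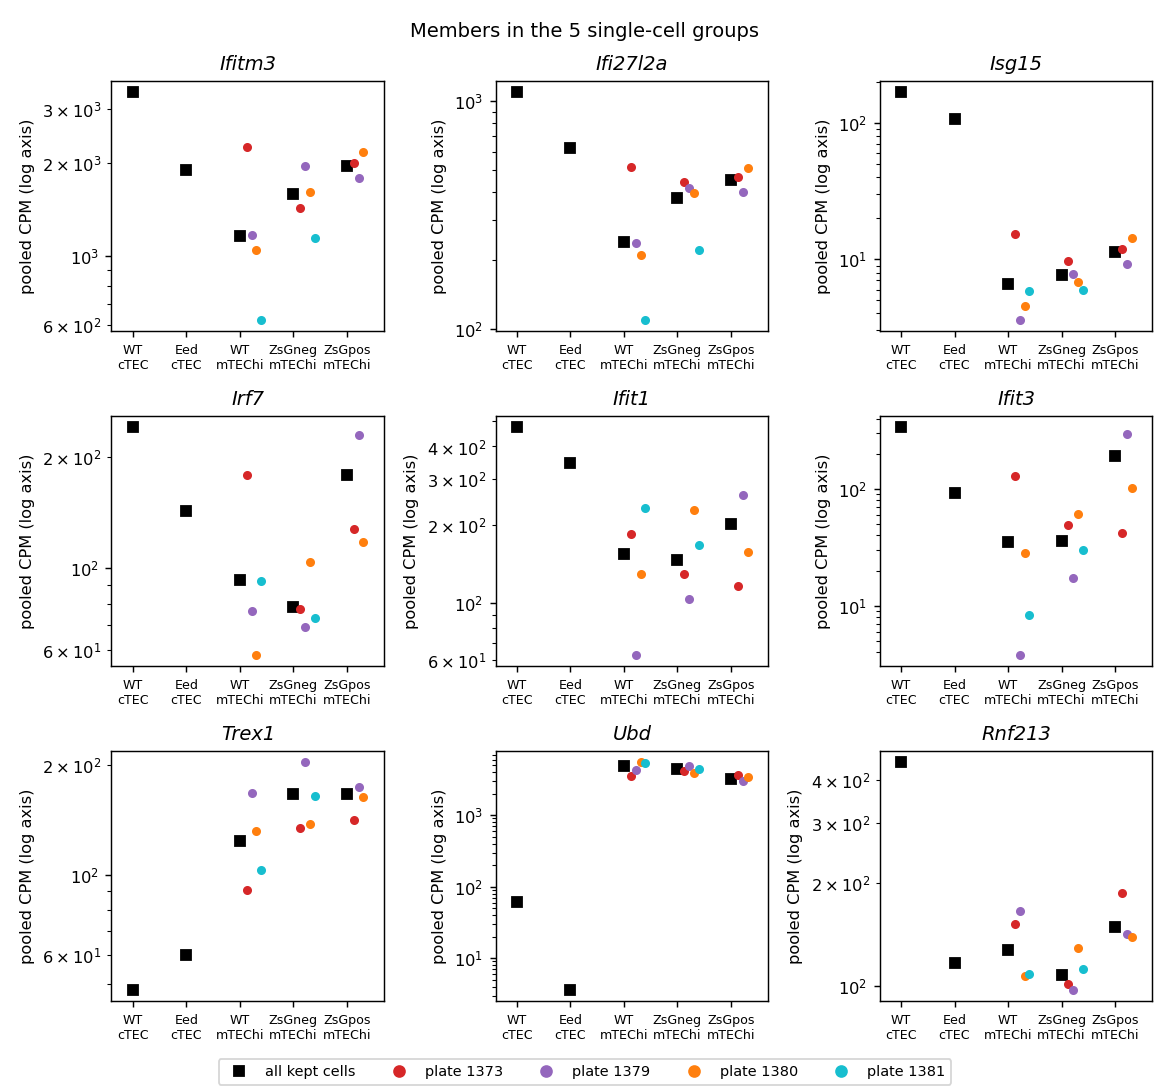
Pooled level of each member in the 5 single-cell groups (CPM, log axes that differ between panels). Black squares pool all kept cells of a group, and coloured points are the plates of the mTEChi groups with at least 20 kept cells. Isg15 falls from 168.2 and 107.8 CPM in cTECs to 6.61 to 11.3 CPM in mTEChi cells while Ubd runs the other way, and plate SCGC1373 stands above the other WT plates for Ifitm3 (2255 CPM against 622 to 1167 CPM).

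In single mTEChi cells the pooled levels of 8 of 9 members were higher in ZsGpos than in WT cells (background 46.3%), 5 of them over 1.5 times (background 17.7%) and with Ubd over 1.5 times lower (background 23.3%), but only Trex1 was higher on each of 3 plates (background 13.3%). Trex1 had 141.7, 174.6 and 163.7 CPM in ZsGpos cells and 90.8, 167.8 and 131.8 CPM in WT cells on plates SCGC1373, SCGC1379 and SCGC1380. Over all plates 5 of 9 members were higher in ZsGneg than in WT cells (background 47.3%), and Ifi27l2a alone by over 1.5 times (background 14.1%). For Trex1, ZsGneg cells had 134.2, 204.1, 138.4 and 165.2 CPM on plates SCGC1373, SCGC1379, SCGC1380 and SCGC1381 and were above WT cells on each of the 4 (background 7.44%), with 103.1 CPM in WT cells of plate SCGC1381. Beside these values, the summed 7 fibroblast markers were 447.99 CPM in ZsGpos, 254.9 CPM in ZsGneg and 196.3 CPM in WT mTEChi cells, and the 6 endothelial markers were 62.4, 46.1 and 36.5 CPM, with Cdh5 at 0 in ZsGneg and Kdr at 0 in WT cells. In the same order the myeloid markers summed to 2012, 1167 and 1732 CPM, with Itgax at 0 in ZsGpos cells. The B cell markers summed to 210.01, 208.3 and 155.8 CPM, the thymocyte markers to 134.1, 174.01 and 166.3 CPM and the erythroid markers to 32.6, 36.04 and 45.5 CPM. Their part in the member levels was not tested. The pooled Trex1 levels of ZsGpos and ZsGneg cells were 166.3 and 166.9 CPM, so the higher bulk level in ZsGneg units had no counterpart between these cells.

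Ifitm3 had 2255 CPM in WT cells of plate SCGC1373 and 1167, 1048 and 622 CPM on plates SCGC1379, SCGC1380 and SCGC1381. ZsGpos cells had 1999, 1790.0 and 2174 CPM and ZsGneg cells 1429, 1959, 1618 and 1147 CPM. The Eed cells were thus higher than WT cells on every plate but SCGC1373, and pooled Ifitm3 was 1964, 1593 and 1163 CPM in ZsGpos, ZsGneg and WT cells, against the bulk order in which ZsGneg stood highest. Ifi27l2a had 450.6, 375.4 and 241.6 CPM in the same 3 groups, again higher in the Eed cells on every plate but SCGC1373, where WT cells had 516.3 CPM.

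Ifit3 had 190.3 CPM (187.2 to 193.6) in ZsGpos, 35.8 (34.7 to 37.0) in ZsGneg and 35.1 (33.9 to 36.4) in WT mTEChi cells. It had a count in 39.9% (33.3 to 46.8), 13.9% (10.3 to 18.2) and 16.9% (12.7 to 21.8) of these cells, and in 30.99%, 11.7% and 14.4% after thinning. A single ZsGpos cell held 24.9% of the counts of its group and a single WT cell 28.9%, and without these cells the levels were 144.3 and 25.2 CPM. By plate, ZsGpos cells had 42.1, 294.7 and 102.03 CPM and WT cells 128.2, 3.81 and 28.04 CPM on plates SCGC1373, SCGC1379 and SCGC1380. The difference thus ran the other way on plate SCGC1373.

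Between the Eed groups, Irf7 and Ifit3 were over 1.5 times higher in ZsGpos cells, and 7 of 9 members were higher at all (background 48.2%). The 2 of 9 over 1.5 times is close to the background of 19.8%. Ifit3 ran the other way on plate SCGC1373, with 42.1 CPM in ZsGpos and 49.2 CPM in ZsGneg cells. Irf7 had 178.6 CPM (175.6 to 181.8) in ZsGpos, 78.4 (76.7 to 80.1) in ZsGneg and 92.6 (90.6 to 94.7) in WT mTEChi cells. ZsGpos cells were above ZsGneg cells on each of 3 plates for Irf7, Isg15 and Rnf213, 3 of 9 members against a background of 14%. For Irf7 the values were 127.3 against 77.5, 229.1 against 69.1 and 117.4 against 103.7 CPM. On plate SCGC1379 Rnf213 had 141.9 against 97.5 CPM and Isg15 9.26 against 7.87 CPM. Single ZsGpos cells of that plate held 17.5% of the group's Rnf213 counts and 9.21% of its Isg15 counts. Left out alone, these cells would take the ZsGpos level there below the ZsGneg level for both genes. A ZsGneg cell of the same plate held 8.35% of that group's Rnf213 counts. The Isg15 intervals overlapped on plates SCGC1373 and SCGC1379. In bulk all ZsGpos units also had more Irf7 than all ZsGneg units, while Ifit3, Isg15 and Rnf213 overlapped there. The bulk log2 fold change of Ifit3 was -0.48 (edgeR adjusted p = 0.645), opposite in sign to the pooled single cells. Rnf213 had 148.3, 107.5 and 127.2 CPM in ZsGpos, ZsGneg and WT cells, and the WT plates overlapped those of both Eed groups. Ifit1 had 201.6, 146.3 and 154.6 CPM, with the plates of all 3 groups overlapping.

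Within each group the members tended to appear in the same cells. Cells were divided by whether an Ifit3 count was present after thinning, and the detection of the other members was compared as a description, with no test. Plates were pooled, and detection differed between them. Before thinning, WT mTEChi cells had Ifit3 in 35.4% of cells on plate SCGC1373 and in 7.84% to 18.3% on the others. Irf7 was in 54.2% there and in 38.2% to 41.3% on the others. The part of plate in the shared detection was not tested. In WT mTEChi cells, 41 cells with Ifit3 had a count of Irf7 in 80.5%, of Rnf213 in 85.4%, of Ifit1 in 60.98% and of Isg15 in 39.02%, against 27.2%, 57.2%, 39.1% and 8.64% of the cells without. In ZsGpos cells the shares were 80.3%, 86.4%, 74.2% and 45.5% of 66 cells against 37.4%, 47.6%, 31.97% and 11.6% of the cells without. All 5 groups showed higher shares of these 4 genes in the cells with Ifit3.

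Ubd did not follow them. In ZsGpos cells Ubd was pooled at 1842 CPM in cells with Ifit3 and 3781 CPM in cells without, and in WT mTEChi cells at 4258 and 4976 CPM. Aire was also lower in mTEChi cells with Ifit3 than without, at 436.8 against 1034 CPM in WT, 249.5 against 1287 CPM in ZsGneg and 394.5 against 1067 CPM in ZsGpos cells. The summed 11 myeloid markers were lower in the cells with Ifit3 in all 3 groups (560.2 to 1009.8 CPM against 1239 to 2573 CPM), and the summed 12 thymocyte markers were 155.1 to 197.4 CPM against 107.96 to 172.6 CPM. Median depth was 216155 gene counts in WT cells with Ifit3 and 306410 in those without. The number of members per thinned cell had a median of 7 in WT cTECs and of 5 in each other group, and all 9 were detected in 6.57% of ZsGpos, 3.87% of WT mTEChi, 3.35% of WT cTEC, 2.84% of ZsGneg and 0.915% of Eed cTEC cells.

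**Figure D4:**
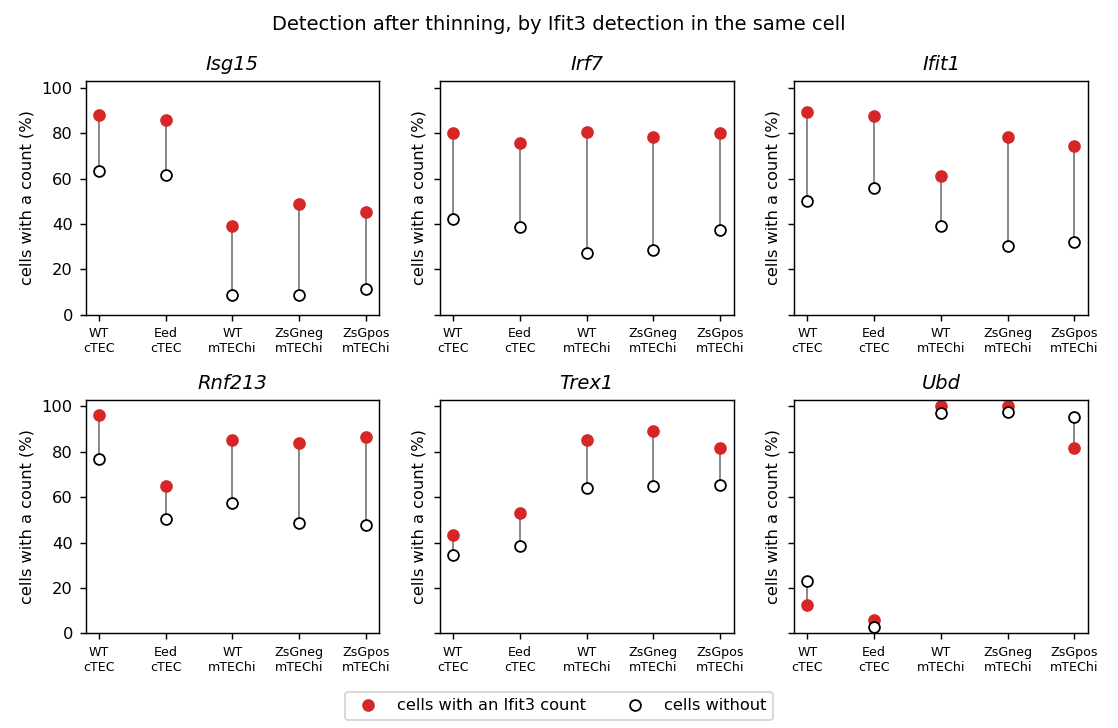
Share of cells with a count of 6 members after thinning each cell to 50000 counts (percent), for cells with an Ifit3 count (red) and without (open) in the 5 groups. For Irf7 the share is 75.7% to 80.5% in the cells with Ifit3 and 27.2% to 42.3% in the others, while Ubd is at 95.2% to 100% in both kinds of mTEChi cell except ZsGpos cells with Ifit3 (81.8%).

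The wider pathway was described from lists of its ligands, receptors, transducers and targets. Among the ligands, 5 of 21 interferon genes passed the filter in bulk and none was called in any comparison (background 0.0423% to 2.66% of genes). Ifnb1, the beta interferon, had 3.91 to 9.11 CPM in WT, 0 to 17.6 CPM in ZsGneg and 0 to 37.95 CPM in ZsGpos units, and the lambda interferons Ifnl2 and Ifnl3 were also scattered between 0 and 21.2 CPM. Interferon gamma (Ifng) had no value above 12.2 CPM and no count in the ZsGneg units. Ifne and Ifnk did not pass the filter, with no value above 3.51 CPM. In single mTEChi cells Ifnl3 was detected in 4.73% of ZsGneg, 0.939% of ZsGpos and 4.93% of WT cells and Ifnb1 in 1.06% to 2.35%, and in cTECs each was found in at most 0.372% of cells.

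None of 9 receptor chains and kinases and none of 9 transducers was called in bulk. The background was 0.0423% to 2.66% of genes by comparison, a share at which lists this short would seldom hold a call. Ifnar1, a chain of the type I receptor, had 46.02 ± 11.4 CPM (SD, n = 4) in ZsGpos, 43.2 ± 24.5 (n = 4) in ZsGneg and 47.4 ± 9.27 (n = 3) in WT units, and its partner Ifnar2 15.9 ± 10.4, 13.9 ± 9.81 and 26.4 ± 6.66 CPM. The gamma receptor chains Ifngr1 and Ifngr2 had 75.8 ± 45.4 and 193.8 ± 37.2 CPM in ZsGpos, 40.2 ± 17.9 and 168.5 ± 25.9 CPM in ZsGneg and 32.96 ± 14.7 and 142.6 ± 45.3 CPM in WT units. Stat2, a signal transducer of the type I and type III receptors, had 84.6 ± 44.02, 38.2 ± 15.5 and 40.98 ± 8.54 CPM in ZsGpos, ZsGneg and WT units, and its partner Irf9 68.3 ± 26.99, 97.7 ± 17.9 and 48.7 ± 14.9 CPM. The lambda receptor Ifnlr1 was near 0 in mTEChi cells (0.560 to 2.73 CPM in the single-cell groups) and had 28.2 and 28.02 CPM in WT and Eed cTECs.

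Of 35 genes induced mainly by type I and type III interferon, 34 were tested, and none was called higher in any bulk comparison. The background in either direction was 0.0423% to 2.66% of genes. Their median log2 fold change was 0.82 in ZsGpos and 0.63 in ZsGneg against WT, with 28 and 26 of 34 above 0, beside -0.05 and -0.15 over all genes. Of 28 genes induced mainly by interferon gamma, none was called against the same background, with medians of 0.42 and 0.52. Between the Eed groups the medians were 0.17 and -0.04, and 1 type I target of 34 was called lower in ZsGpos (background 2.04% of genes lower, 2.66% in either direction): Ifitm2, a relative of Ifitm3, at 215.6 ± 34.1 against 539.7 ± 52.8 CPM (log2 fold change -1.32, SE 0.176, adjusted p = 0.00151). Other pathway genes called lower in ZsGpos than in ZsGneg were Usp18, the protease that removes Isg15 (251.4 ± 71.7 against 609 ± 222.5 CPM, adjusted p = 0.0212), 1 of 5 enzymes of Isg15 conjugation and removal and 1 of 8 inhibitors of interferon signalling. Tmem173, the DNA-sensing adaptor STING, was 1 of 17 tested sensors and adaptors (99.7 ± 8.29 against 292.99 ± 163.3 CPM, adjusted p = 0.0205). Among 13 tested relatives of the members, 2 were called lower, Ifitm2 and the ubiquitin gene Ubb (635 ± 37.4 against 1666 ± 501.5 CPM, adjusted p = 0.0018). With the outside-gene read share as covariate, no gene was called in this comparison of the Eed groups. Whether these list calls hold with 1 unit left out was not examined.

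**Figure D5:**
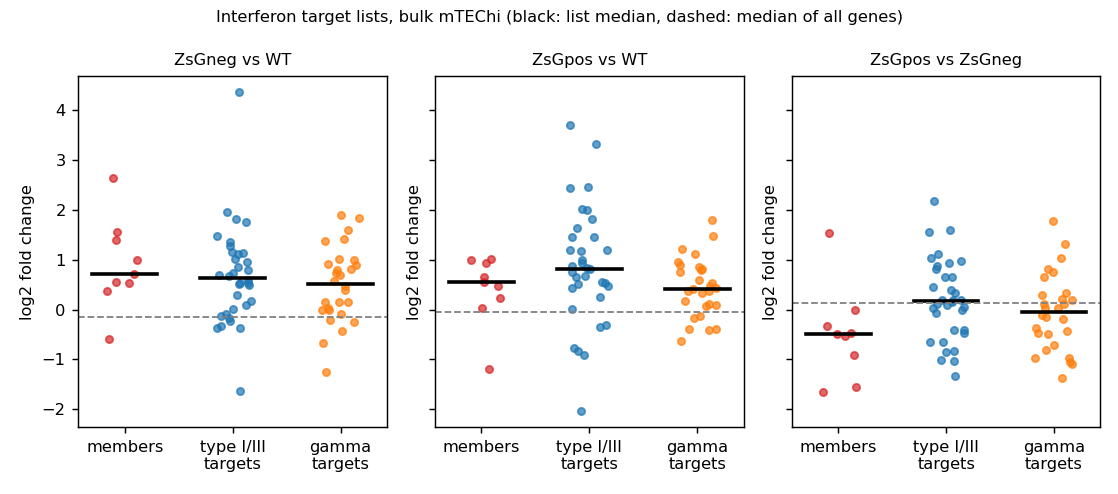
Log2 fold change of each tested gene in bulk mTEChi cells for the 9 members (red), 34 type I and type III targets (blue) and 28 gamma targets (orange). The black bar is the list median and the dashed line the median of all genes, and the list medians lie above the dashed line in both comparisons with WT (0.54, 0.82 and 0.42 for ZsGpos).

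In single cells 31 of 34 type I and type III targets and 23 of 27 gamma targets had higher pooled levels in WT than in Eed cTECs (background 49.1% of genes). In ZsGpos against WT mTEChi cells the counts were 31 of 34 and 22 of 28 (background 46.3%), and in ZsGneg against WT they were 17 of 34 and 26 of 28 (background 47.3%). The difference between the lists was not tested, and in bulk ZsGneg units against WT the counts above 0 were 26 of 34 and 20 of 28. The plates within these counts were not separated.

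The 5 genes whose bulk profile was most like the mean profile of the 9 members over the 11 units were Irgm1 (Pearson r = 0.925), Trp53 (0.906), Ncl (0.901), Gm11604 (0.861) and Rpl37a (0.853). The members did not share 1 profile, with r between pairs of them from -0.776 (Irf7 and Ubd) to 0.913 (Ifitm3 and Ifi27l2a). Likeness to their mean is therefore not likeness to each member. The units share library and depth with the members, and no test was made. Irgm1, an interferon-inducible GTPase gene of the gamma list, had 79.8 CPM in WT, 148.3 in ZsGneg and 106.4 in ZsGpos units.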

How the data were processed

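The deposited files used here hold whole-number counts of reads per gene, which the authors made by trimming, alignment to mm10 and counting. Per the submitters' processing notes the tools were FastQC, Trimmomatic, HISAT 0.1.6, BWA 0.5.9, HTSeq and MACS2, with no role given for each. Every column of the count table was mapped to a sample. The 6 small pools on plates SCGC1379 and SCGC1381, where each plate held pools of 1 group only, were not analysed here. Spike-in rows and rows for unassigned reads were left out of library sizes and tests. Whether counting used strand is not stated, so reads of overlapping genes and near-identical copies cannot be told apart.

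The 9 members and the pathway and marker lists were chosen with earlier results of these data known. Beside the members, genes are named where their list was called or where they are receptors, transducers or ligands, and the 5 genes most like the members by profile. Bulk counts were fitted across all groups with edgeR 4.0.16 (R 4.3.3, quasi-likelihood test, TMM, Benjamini-Hochberg adjustment, threshold 0.05), and each SE is the log2 fold change divided by the square root of its F statistic. The fit was tested on simulated data. DESeq2 1.42.0, size factors, no filter, 9 separate WT libraries, a replicate block, a covariate and leaving out each unit were tried as alternatives. Single cells had to hold 50000 gene counts and 1500 genes, with at most 25% mitochondrial counts, and were thinned to 50000 counts for shares where stated. No doublet caller was run on these plate-sorted cells. The 1.5-fold limit for single cells was set after values were seen. Some results are not reported here.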

Additional observations from a re-analysis of the deposited data

Results flagged for a closer look

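Among the ZsGneg units, Isg15 in unit 2 stood apart at 34.2 CPM, the 1 such value among 27 combinations of member and group (4 ZsGneg units, 4 ZsGpos units or 9 WT libraries), where chance gives about 1 in 20. The difference from WT was lower in ZsGpos than in ZsGneg by -0.91 for Ifitm3, -1.65 for Trex1 and -1.56 for Ubd on the log2 scale, in the direct test of the Eed groups.

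Wells without template are outside the comparisons. Of 14 such wells, 3 on plate SCGC1380 held 51838 to 73567 gene counts, and the other 11 together held 3 member counts. With 1783 to 3497 detected genes, these 3 wells pass the limits on counts and genes that were used to keep cells. Ifitm3 stood at 17227, 29660.04 and 4269 CPM in wells A1, A2 and A3 of that plate, and well A2 held counts of all 9 members. Their part in the single-cell values of that plate was not tested.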

How the results depend on the processing

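In bulk ZsGpos against WT, 0.38% of genes and 1 member were called. The share was 1.67% with 9 WT libraries as separate units, 3.04% with DESeq2, 0.83% with no low-count filter (of more genes tested), 0.678% with only the compared groups and 0.0264% with the outside-gene share as covariate, and 0.044% (without WT 2) to 0.5001% with 1 unit left out, where ZsGpos 1, 2 and 4 and each WT unit moved it by over 1.5 times, to at most 0.254%. The members called were 2 in the first 4 of these settings, 0 with the covariate and 1 to 2 with 1 unit left out. In ZsGneg against WT (0.0423%, 2 members) the same 5 settings called 0.768%, 2.92%, 0.368%, 0.00583% and 0.0106% of genes, and 0 to 0.0269% with any 1 unit left out. Members there were 4 with no filter, 0 with only the compared groups or the covariate, and 0 to 2 with 1 unit left out. Size factors gave 8 higher and 0 lower genes there, against 7 and 1. In ZsGpos against ZsGneg (2.66%, 23.4% of them higher, 3 members) DESeq2 called 11.6% (50% higher), no filter 2.42% and the covariate 0 genes and 0 members. Leaving out 1 unit gave 1.65% to 2.73% (1.74% and 1.65% without ZsGpos 2 and 4) and 2 to 3 members. The 1 member called in the pools was called or lost (0 to 1) with 1 well left out.

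Same-numbered units did not deviate together (correlations of -0.021 to 0.018 over 10 pairs). With the replicate block, 0.00528% of genes and 1 member were called in ZsGneg against WT. Ifi27l2a (adjusted p = 0.0651) missed the threshold there, as did Trex1 (adjusted p = 0.0804) in ZsGpos against ZsGneg.

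Some members without a call reversed direction, and the cause was not tested. In ZsGpos against WT, Ifit1 was -0.42 with the covariate and -0.33 to 0.25 with 1 unit left out, and Ifit3 was -0.076 to 0.51. Between the Eed groups, Ifi27l2a was 0.026 with the covariate, and Isg15 was -0.57 to 0.46 and Rnf213 -0.19 to 0.22 with 1 unit left out. Rnf213 was also 0.011 with 9 WT libraries, 0.015 with DESeq2 and with size factors, and 0.069 with the replicate block. Over all member tests, 87.2% of the alternatives kept direction and side of the threshold, 39 lost the call, 9 gained one and 14 reversed. Most of these tests had no call to lose, since the main fit called 1, 2 and 3 members in the 3 comparisons. All 39 losses fall on these called results, so the 87.2% does not measure how steady the calls were.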
